A study of Mus musculus with 82 samples.

Results

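A set of 10 collagen genes, whose products do not build the banded fibrils of the dermis, was followed in mouse skin after whole-body X-rays. They were the basement membrane chains Col4a1, Col4a2 and Col4a4, the beaded-filament chains Col6a1 and Col6a2, the anchoring-fibril collagen Col7a1, the basement membrane zone collagens Col15a1 and Col18a1, the fibril-associated collagen Col16a1 and the hemidesmosome collagen Col17a1. Members were found by gene symbol, and the list of symbols was drawn up with earlier results of these data known. Each gene was represented by 1 probe, the brightest by mean log2 intensity across the 82 arrays, which gave 10 probes out of 16 for these genes, among 18690 genes with a probe. All 10 passed the filter on dim probes, as did the other 6 probes of these genes.

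Male mice of the C57BL/6j strain were sham-treated or given 1, 3, 6 or 20 Gy, and a piece of shaved dorsal skin was taken from the same animals again at h2, d4, d7, d21 and d28. The mice were bought at 8 weeks of age, acclimated for a week before exposure and anesthetized for irradiation, and the sham mice made the same trip without X-rays. All groups shared strain, sex and repeated biopsy, so that every biopsy after h2 came from an already wounded animal, and the 20 Gy mice had to be euthanized by d7. Biopsy RNA was labeled with Cy5 and a universal mouse reference RNA with Cy3, and values are the log2 ratio of Cy5 over Cy3, so that a value of 0 means as much signal from the biopsy as from the reference. Counting arrays from h2 to d28, the sham group had 4, 4, 4, 2 and 2 and the 1 Gy group 4, 4, 2, 4 and 4. The 3 Gy group had 5, 5, 3, 4 and 3, the 6 Gy group 4, 4, 2, 3 and 4, and the 20 Gy group 4, 4 and 3 up to d7, 82 arrays from 24 mice in all. At each time point all doses were compared with the same sham arrays, so their differences are not independent of each other. In a whole-skin biopsy, fewer cells of a type and less RNA per cell cannot be told apart.

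Type IV collagen chains wind into trimers that join into the sheet of every basement membrane, where the α1 and α2 chains are found together and the α4 chain belongs to specialised membranes such as that of the kidney glomerulus. Type VI collagen assembles into beaded microfilaments around cells, type VII hangs the epidermal basement membrane onto the dermis, and type XVII spans the membrane of basal keratinocytes in the hemidesmosome. Types XV and XVIII are proteoglycan collagens of vascular and epithelial basement membranes, the latter giving rise to endostatin, and type XVI sits at the border of fibrils and basement membranes.

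The genes lay on 6 chromosomes (RefSeq, GRCm38.p6). Col4a4 was at chr1:82448419-82587034, Col15a1 at chr4:47207655-47313167, Col16a1 at chr4:130047817-130099277, Col7a1 at chr9:108953586-108984875, Col6a2 at chr10:76595756-76623630, Col6a1 at chr10:76708792-76726044, Col18a1 at chr10:77052178-77166530 and Col17a1 at chr19:47646341-47692042. Col4a1 (chr8:11198423-11312889, minus strand) and Col4a2 (chr8:11312805-11449287, plus strand) are read away from a shared stretch of DNA, and the starts of their RefSeq promoter windows, 11312826 and 11312805, were 21 bases apart. The 30 bases around both starts are shown because the pair did not score alike in the tests below. They are written on the plus strand, and capitals run from the Col4a2 start to the Col4a1 start.
Col4a1 and Col4a2 starts, chr8:11312801-11312830: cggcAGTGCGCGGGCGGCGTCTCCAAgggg

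The bases before the start are shown for 3 further genes, Col16a1 because its 2 probes moved in opposite directions after 20 Gy, and Col17a1 and Col7a1 because both hold the epidermis to the dermis and Col17a1 was the only member with a TATA box. Each is written 5′ to 3′ on the strand of the gene, and capitals mark matches on either strand to 4 motifs. These were the TATA box, searched as TATAAA, and the GC box, searched as GGGCGG. The CCAAT box and the AP-1 motif, the latter searched as TGANTCA, were the others. No match in the windows shown overlapped another.
Col16a1, chr4:130047590-130047816, plus strand: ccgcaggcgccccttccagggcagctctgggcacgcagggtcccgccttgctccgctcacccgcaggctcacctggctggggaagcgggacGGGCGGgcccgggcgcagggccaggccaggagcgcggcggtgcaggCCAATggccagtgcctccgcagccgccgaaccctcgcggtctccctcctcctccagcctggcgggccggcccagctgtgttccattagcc
Col17a1, chr19:47692043-47692292, minus strand: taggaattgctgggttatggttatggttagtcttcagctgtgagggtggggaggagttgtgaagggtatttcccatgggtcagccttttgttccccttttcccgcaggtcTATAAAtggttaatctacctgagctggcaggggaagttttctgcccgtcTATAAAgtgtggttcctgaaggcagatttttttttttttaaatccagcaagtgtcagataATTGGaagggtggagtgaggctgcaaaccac
Col7a1, chr9:108953336-108953585, plus strand: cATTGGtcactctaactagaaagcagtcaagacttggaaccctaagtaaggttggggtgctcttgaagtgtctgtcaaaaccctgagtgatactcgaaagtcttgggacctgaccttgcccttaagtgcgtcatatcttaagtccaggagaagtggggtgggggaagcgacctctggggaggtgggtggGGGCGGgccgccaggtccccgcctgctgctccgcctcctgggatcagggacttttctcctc
All 10 genes had a window in the RefSeq table, 12 windows in all. In the 250 bases before the start, the TATA box was found in Col17a1 alone, with 2 matches, and in 12.4% of 32851 windows of all genes. The AP-1 motif was found in Col6a1 alone, with 1 match, and in 6.75% of all windows. The GC box (32.7% of all windows) was found in Col4a2, Col6a2, Col7a1, Col16a1 and Col18a1, and the CCAAT box (33.8%) in Col4a1, Col4a2, Col7a1, Col16a1, Col17a1 and Col18a1. Col4a4 and Col15a1 had none of the 4 motifs. A match is a string of letters and not a site of binding.

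Before the results, some features of the arrays bear on them. The labeled tissue was borne out by its markers, as all 4 basal keratinocyte and all 7 fibroblast markers were well above background on all 82 arrays, while the 6 markers of the growing hair follicle were each dimmer on some arrays. All 11 arrays of 20 Gy were read on 1 of the 2 scanners (scanner 1), with 8 of the 16 sham arrays and 6 of the other 55. The median Cy5 intensity of an array lay between 29 and 33 after 20 Gy at h2 and d4 and between 48 and 97.5 in sham at those time points, so that every 20 Gy array was dimmer there. On scanner 1 the share of probes well above background at h2 and d4 was 38.0% to 49.1% after 20 Gy and 51.4% to 65.2% in sham. At d7 the 20 Gy arrays read 22 to 26.5 and the 2 sham arrays of scanner 1 read 23 and 23.5. The part of this difference in signal in the results was not tested. All 4 arrays of 20 Gy at h2 lay on 1 slide and all 4 of d4 on another, with no sham array on either. Dose and slide cannot be told apart at those time points. Sham mouse M002 was read on scanner 2 at h2 and d4, where the other 3 sham mice were read on scanner 1, and it stood apart in several members. A probe is called lower or higher below where the limma fit over all tested probes gave a Benjamini-Hochberg adjusted p under 0.05 and at least a 2-fold difference from sham.

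**Figure D1:**
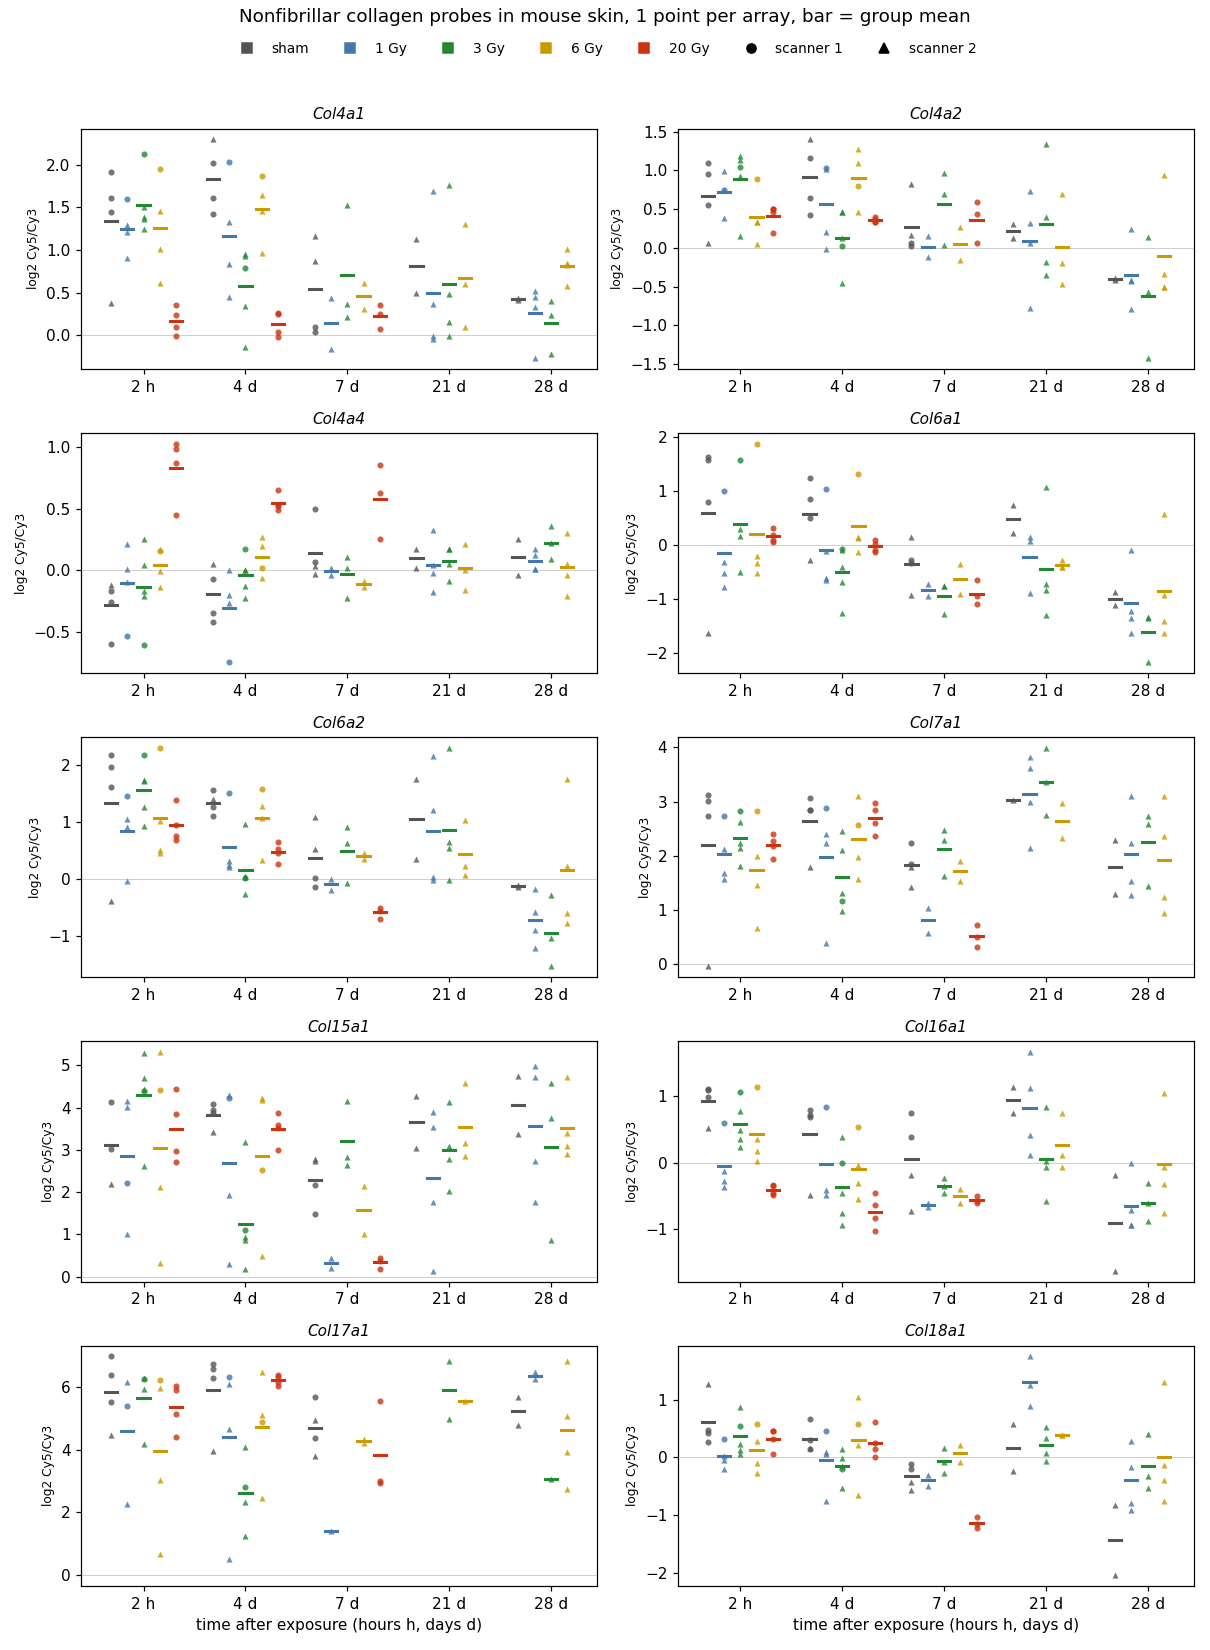
Log2 Cy5/Cy3 of the brightest probe of each gene on every array, by time point (x axis) and dose (colour), with bars at group means, circles for scanner 1 and triangles for scanner 2. Col4a1 after 20 Gy lay between -0.02 and 0.35 at h2 and d4, under all sham arrays of those time points, and Col4a4 after 20 Gy lay above them.

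After the lethal dose of 20 Gy, the basement membrane chain Col4a1 and the fibril-associated Col16a1 were called lower at h2 and at d4, and Col4a4 was called higher at h2. No member was called at d7. At h2 this made 2 of 10 genes lower and 1 higher, where 3.33% of all tested probes were called lower and 5.79% higher. At d4 it made 2 lower and 0 higher, where 5.11% and 6.09% of all probes were called. At d7 it was 0 in both directions, against 0.624% lower and 1.21% higher, and 2 members passed an unadjusted p of 0.05 with 2-fold lower values. How many of all probes passed without adjustment was not counted. The counts of calls depended on the normalization. With the deposited values 6, 5 and 6 members were called lower at h2, d4 and d7, with centring on the array median 7, 7 and 0, and with the software's own log ratio 2, 2 and 6, and on scanner 1 alone they were 3, 2 and 3. Over all 30294 tested probes the software's log ratio called 7467, 6493 and 2341 lower, and scanner 1 alone 1875, 2281 and 182. The 10 genes had a median difference of -0.34 (h2), -0.45 (d4) and -0.72 (d7), and all tested probes one of -0.00, -0.02 and 0.02. The split of calls over all probes moved with the normalization, from 1008 lower and 1754 higher at h2 to 673 and 304 in the values deposited by the authors, and to 11138 and 83 with centring of each array on its median. At d4 the same settings gave 1548 and 1844, 689 and 252, and 7748 and 125, and at d7 they gave 189 and 366, 713 and 313, and 20 and 22.

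Col4a1, one of the 2 chains of the common basement membrane trimer, read 1.45, 1.92, 1.61 and 0.38 in the sham arrays at h2 and 0.10, -0.01, 0.24 and 0.35 after 20 Gy. The lowest sham array, that of M002, was close to the highest irradiated one, and the groups did not overlap. At d4 the sham arrays read 1.42, 2.02, 1.61 and 2.30 and the 20 Gy arrays 0.04, 0.25, -0.02 and 0.26, a gap of over 1 unit between the groups. At d7 the sham arrays read 0.10, 0.04, 0.87 and 1.16 and the 20 Gy arrays 0.35, 0.25 and 0.07, which overlapped. Col4a1 thus fell by 1.17 ± 0.34 on the log2 scale (SE, n = 4 and 4; adjusted p = 0.00918 in limma) at h2, or 2.25-fold, and by 1.71 ± 0.34 (adjusted p = 1.1e-04), or 3.26-fold, at d4, and its difference at d7 was -0.32 ± 0.37 (adjusted p = 0.882). Among the arrays of scanner 1 alone the differences at h2 and d4 were -1.49 and -1.55, both called. With slide as a random block they were -1.20 (adjusted p = 0.0422 in limma) and -1.67 (adjusted p = 0.00255). Without mouse M004 the h2 value was -0.97 (adjusted p = 0.0581), short of the call. In the deposited values the same probe differed by -0.08 at h2 and -0.32 at d4 and was not called, and the other probe of the gene differed by -0.05 and -0.60 and was not called.

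Col4a2, the partner chain on the other side of the shared start region, was not called in any of the 18 comparisons with sham over all arrays. With median centring it was called lower after 20 Gy at h2 (-2.67, adjusted p = 4.2e-04) and d4 (-2.22, adjusted p = 0.00567), and the deposited values gave 0.14 and 0.02. Its sham arrays at d4 read 0.43, 1.16, 0.65 and 1.40 and the 20 Gy arrays 0.33, 0.40, 0.37 and 0.34, so that all irradiated arrays lay below sham, with a difference of -0.55 (95% interval -1.19 to 0.09; adjusted p = 0.184). At h2 the difference was -0.25 and at d7 it was 0.09. Across the 23 group means Col4a1 and Col4a2 correlated with r = 0.74. Whether the difference of Col4a1 exceeded that of Col4a2 was not tested.

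Col4a4, the chain of specialised basement membranes, was called in the opposite direction. Its sham arrays read -0.60, -0.26, -0.17 and -0.12 at h2, and its 20 Gy arrays 1.03, 0.45, 0.99 and 0.87, all above sham. The rise at h2 was 1.12 ± 0.15 (adjusted p = 4.8e-08), or 2.18-fold. At d4 the sham arrays read -0.07, -0.42, -0.35 and 0.05 and the 20 Gy arrays 0.49, 0.52, 0.53 and 0.65, again without overlap, but the difference of 0.74 (adjusted p = 1.4e-04) was under 2-fold. At d7 it was 0.43 (adjusted p = 0.144), with 1 sham array at 0.50 inside the 20 Gy range of 0.25 to 0.86. Scanner 1 alone gave 1.18 at h2 and 0.82 at d4. The direction was lost in the values deposited by the authors, -0.12 at h2 and -0.06 at d4, and with centring on the array median instead of loess, -0.93 and -0.57, a setting that also moved the median of all probes by -0.57 and -0.42. The gene has a single probe on the array.

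Col16a1, a fibril-associated collagen of the dermis and basement membrane zone, read 1.09, 1.10, 0.98 and 0.52 in sham at h2 and -0.48, -0.34, -0.35 and -0.46 after 20 Gy. All 4 irradiated arrays lay below all sham arrays. At d4 the sham arrays read 0.69, 0.79, 0.72 and -0.48, the last being M002 on the other scanner, and the 20 Gy arrays -0.45, -0.64, -0.83 and -1.03, so that 1 sham array fell inside the irradiated range. The brightest probe fell by 1.33 ± 0.34 (adjusted p = 0.00287), or 2.51-fold, at h2 and by 1.17 ± 0.34 (adjusted p = 0.00713), or 2.25-fold, at d4. These calls held with scanner as a block (-1.54 and -1.38), on scanner 1 alone (-1.46 and -1.47) and in the deposited values (-1.32 and -1.16). With slide as a random block the h2 call held (-1.25, adjusted p = 0.0421) and the d4 call was lost (-1.09, adjusted p = 0.0685), and all 4 arrays of 20 Gy at d4 lay on 1 slide. At d7 the difference was -0.62 over all arrays (adjusted p = 0.549) and -1.13 on scanner 1 alone, where it was called. The other probe of Col16a1 went the opposite way, higher by 1.28 ± 0.22 at h2 (adjusted p = 1.2e-05) and by 1.49 ± 0.22 at d4 (adjusted p = 5.2e-07), so the direction for the gene is unsettled. Why the probes differ was not tested.

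**Figure D2:**
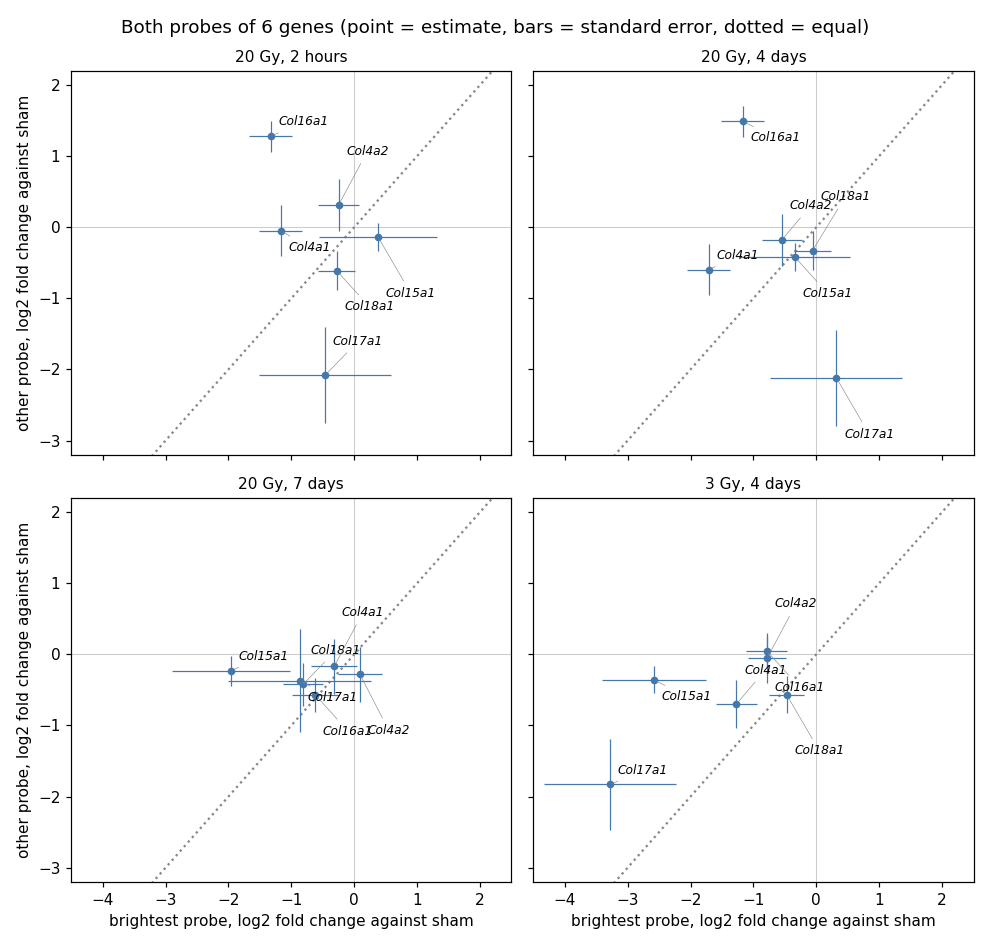
Log2 differences from sham of the brightest (x axis) and the other probe (y axis) of the 6 genes with 2 probes, in 4 comparisons, with standard errors as bars and equality as a dotted line. Col16a1 stood at -1.33 and 1.28 at h2 and at -1.17 and 1.49 at d4, in the quadrant of opposite signs, and Col17a1 was called lower by its other probe at h2 and d4.

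The attachment collagens showed a mixed picture. Col17a1, the transmembrane collagen of basal keratinocytes, read 6.98, 6.39, 5.53 and 4.46 in sham at h2 and 5.15, 4.41, 5.91 and 6.04 after 20 Gy, which overlapped, and the difference of its brightest probe was -0.46 ± 1.05 (adjusted p = 0.793). Its other probe, however, differed by -2.08 ± 0.67 at h2 (adjusted p = 0.0185) and -2.12 ± 0.67 at d4 (adjusted p = 0.0128) and was called lower at both, where the brightest probe gave 0.32 at d4. The brightest probe was itself called lower at h2 in the deposited values (-1.16, adjusted p = 0.00205) and higher at d4 with the software's log ratio (2.11, adjusted p = 2.3e-06). The brightest Col17a1 probe was left out as an outlier spot on 21 of the 82 arrays, so that 4 of its 18 comparisons could not be estimated. Col7a1, the anchoring-fibril collagen, differed by 0.00 ± 0.50 at h2 and 0.06 ± 0.50 (95% interval -0.93 to 1.06) at d4. The same probe was called lower at both in the deposited values, at -1.45 (adjusted p = 1.0e-05) and -1.60 (adjusted p = 1.6e-06), and with median centring, at -2.73 and -1.92. At d7 its sham arrays read 1.85, 2.23, 1.80 and 1.42 and its 20 Gy arrays 0.73, 0.32 and 0.51, all below sham, a difference of -1.30 ± 0.54 (adjusted p = 0.219) that was not called. On scanner 1 alone it was -1.52 (adjusted p = 6.4e-05), and the deposited values gave -1.68.

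Col15a1, a proteoglycan collagen of small vessel walls and other basement membranes, was also lowest at d7. Its 20 Gy arrays read 2.97, 2.72, 4.45 and 3.85 at h2, 3.86, 3.52, 3.00 and 3.58 at d4 and 0.38, 0.45 and 0.19 at d7. The sham arrays at d7 read 1.49, 2.17, 2.79 and 2.73, all above the irradiated ones. Its differences were 0.38 at h2, -0.34 at d4 and -1.96 ± 0.94 (adjusted p = 0.355) at d7, and the last was called on scanner 1 alone (-1.49, adjusted p = 0.0473). The deposited values gave -2.66, -2.56 and -2.91 for the same probe and called it lower each time, while the software's log ratio called it higher at h2 (1.83, adjusted p = 2.3e-05) and d4 (2.24, adjusted p = 1.4e-07), so that both the call and its direction depended on the normalization. The other probe of Col15a1 differed by -0.14, -0.42 and -0.23 and was not called.

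Like Col7a1, Col15a1 and Col6a2, Col18a1, the source of endostatin, had all its 20 Gy arrays of d7 below sham. How many of all probes lay below sham in that way was not counted. Col18a1 read -0.20, -0.12, -0.43 and -0.57 in sham and -1.23, -1.15 and -1.04 after 20 Gy, a difference of -0.81 ± 0.32 (adjusted p = 0.192), with -0.98 on scanner 1 alone. It was called lower there in the deposited values (-1.15), with the software's log ratio (-1.54) and with an offset of 0 (-1.16). Its other probe differed by -0.42 at d7. At h2 and d4 its differences were -0.28 and -0.06, but the deposited values called it lower at both (-1.19, adjusted p = 3.4e-05, and -1.18, adjusted p = 4.3e-05), as did median centring (-3.26 and -2.12). The type VI chains Col6a1 and Col6a2 were not called at any of the 3 time points in the fit over all arrays without a block. Col6a2 was, however, called lower in the deposited values at h2 (-1.05, adjusted p = 0.00276) and d4 (-1.02, adjusted p = 0.00393), and with scan day as a block, an alternative added after seeing the data, both Col6a1 and Col6a2 (-1.08) were called at d4. With centring both were called at h2 and d4. Col6a2 read 0.02, -0.13, 0.53 and 1.09 in sham at d7 and -0.69, -0.55 and -0.51 after 20 Gy (difference -0.96, adjusted p = 0.44), and Col6a1 read -0.28, -0.34, -0.94 and 0.14 against -1.10, -0.95 and -0.66 (difference -0.54, adjusted p = 0.852). Both were called lower at d7 in the deposited values (-1.27 and -1.04), with the software's log ratio (-2.82 and -2.12) and with an offset of 0 (-2.24 and -1.91), in that order. At that point Col6a1 was well above background on 1 of the 3 irradiated arrays and Col6a2 on 2 of 3. At h2 the array of sham mouse M002 read -1.63 for Col6a1 and -0.39 for Col6a2, where the other 3 lay between 0.79 and 1.64 and between 1.61 and 2.17, and on scanner 1 alone Col6a1 was called lower (-1.17, adjusted p = 6.2e-05).

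**Figure D3:**
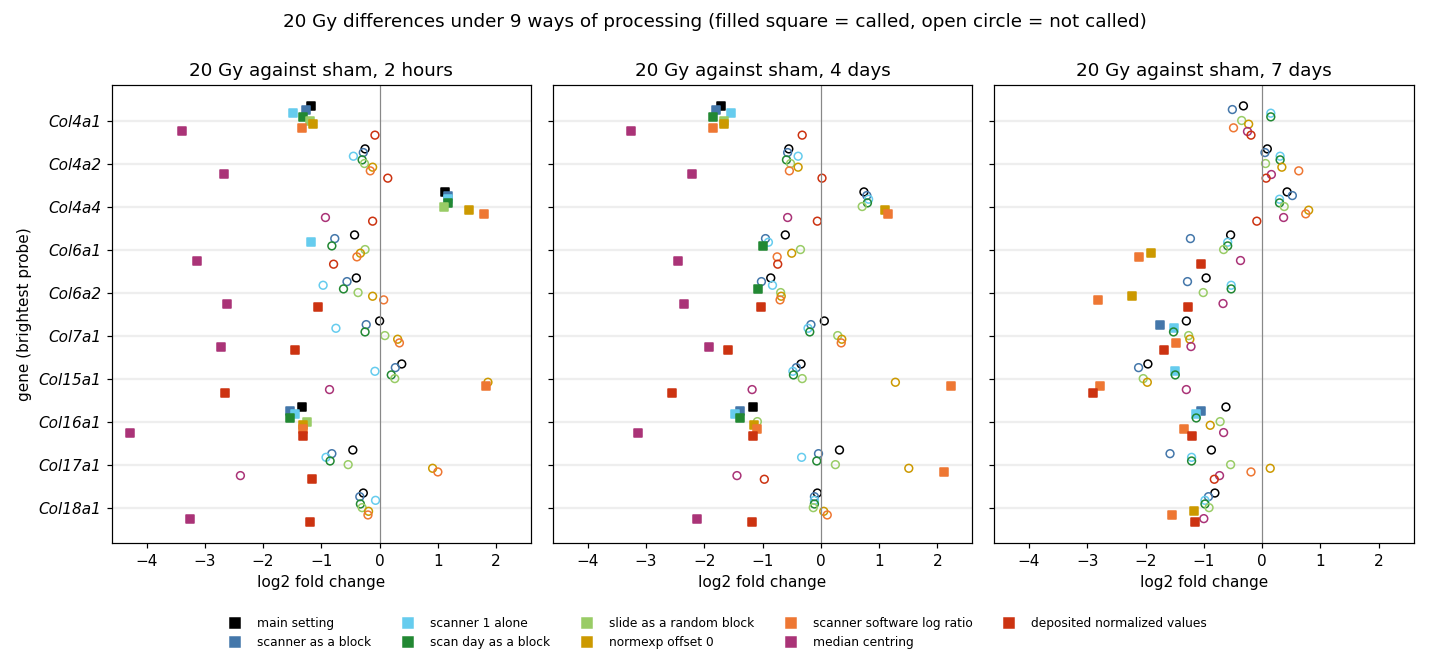
Log2 difference of 20 Gy from sham (x axis) for each gene at h2, d4 and d7 under 9 ways of processing (colours), filled where called. Col16a1 was called lower at h2 under each of the 9, while Col15a1 ranged from -2.66 to 1.86 at h2.

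The change of the 20 Gy effect with time was tested directly. Between h2 and d7 no member changed by 2-fold past the threshold, where 5.59% of all probes were called in either direction. The software's log ratio, however, called 5 members lower (Col15a1 by -4.61, adjusted p = 3.3e-10), median centring called Col4a1 (3.15), Col4a2 (2.83) and Col16a1 (3.64) higher, and scanner 1 alone called Col4a1 higher (1.64, adjusted p = 4.0e-05). An offset of 0 in the background correction called Col6a2 lower (-2.12). Shares of all probes under these settings were not taken for this change, and the 5.59% belongs to the fit that called no member. The difference of Col4a4 fell by 0.69 on the log2 scale from h2 to d7 (adjusted p = 0.0419), short of 2-fold, and that of Col15a1 changed by -2.34 ± 1.33 (adjusted p = 0.313). Between d4 and d7 Col4a1 changed by 1.38 ± 0.50 (adjusted p = 0.0672). All 4 arrays of h2 lay on 1 slide and all 4 of d4 on another, and on scanner 1 the d7 arrays, sham and irradiated, were scanned on another day than those of h2 and d4.

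Set against the highest sublethal dose, 20 Gy gave a lower Col4a1 at h2, with a difference of -1.09 ± 0.34 (adjusted p = 0.0238), and at d4, with -1.36 ± 0.34 (adjusted p = 0.00309). The 6 Gy arrays read 1.95, 1.46, 1.01 and 0.61 at h2 and 1.87, 1.46, 1.65 and 0.97 at d4, all above the 20 Gy arrays. At d7 Col18a1 differed by -1.21 ± 0.39 (adjusted p = 0.0443), and was called lower, its 6 Gy arrays reading 0.22 and -0.08. Both of those arrays were read on scanner 2 and all 20 Gy arrays on scanner 1. That made 1 member lower and 0 higher at each time point. The background in the same fit was 1.19% lower and 3.96% higher at h2, 1.31% and 4.09% at d4, and 1.34% and 2.43% at d7. The deposited values called 4, 7 and 5 members lower, and the software's log ratio 3, 2 and 1 higher with 1, 1 and 4 lower. Shares of all probes under those settings were not taken, so these counts have no background here. Col4a4 was higher by 0.79 at h2 (adjusted p = 8.2e-05), 0.44 at d4 (adjusted p = 0.0393) and 0.69 at d7 (adjusted p = 0.0162), each under 2-fold. Its direction turned in the deposited values (-0.29, -0.35 and -0.19) and, at h2 and d4, with median centring (-0.59 and -0.91), while the software's log ratio called it higher at h2 (1.42) and d7 (1.27). Of the 6 Gy arrays only that of M017 at h2 and at d4 was read on scanner 1, and against that lone array, taken to vary like the other groups, Col4a1 differed by -1.78 and -1.74. The deposited values gave 0.01 and -0.19 for Col4a1 and -1.22 for Col18a1. The h2 call of Col4a1 was lost with slide as a random block (-1.04, adjusted p = 0.129) and without M016, M017, M021, M022 or M023 (-0.86 to -1.11). At d7 the call of Col18a1 was lost without any 1 of 12 mice.

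Among the sublethal doses, calls came from a single comparison with the loess-normalized ratios, which was not so in the deposited values. At d4 after 3 Gy, Col15a1, Col17a1 and Col4a1 were called lower, 3 of 10 genes with 0 higher, where 3.34% of all probes were called lower and 1.92% higher. The median difference of the set was -1.06, against -0.05 for all probes, and 9 of 10 members lay below sham. Col15a1 read 1.11, 0.94, 3.19, 0.18 and 0.86 after 3 Gy, against 3.87, 3.95, 4.08 and 3.42 in sham. It fell by 2.58 ± 0.82 (adjusted p = 0.0282), or 5.97-fold, and the groups did not overlap, though mouse M013 at 3.19 came close to sham. Col17a1 read 2.82, 2.33, 1.23 and 4.10 on 4 arrays against 6.58, 6.30, 6.75 and 3.96, with 1 sham array inside the irradiated range, and fell by 3.28 ± 1.05 (adjusted p = 0.03). Its other probe was also called lower (-1.83, adjusted p = 0.0394). Col4a1 read 0.79, -0.14, 0.93, 0.34 and 0.95, all below sham, and fell by 1.27 ± 0.32 (adjusted p = 0.0151).

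The calls at 3 Gy depended on the processing and on single mice. The 3 Gy arrays were read on scanner 2 except that of M011, and the sham arrays on scanner 1 except that of M002. With scanner as a block the differences were -2.40 for Col15a1, -2.56 for Col17a1 and -1.06 for Col4a1, with adjusted p of 0.104, 0.123 and 0.0952. None of the 3 was called without sham mouse M001, M004 or M005 or without irradiated mouse M012 or M014, though the differences stayed between -2.31 and -2.56 for Col15a1, -2.81 and -3.18 for Col17a1 and -1.09 and -1.40 for Col4a1, with adjusted p from 0.0502 to 0.103. Without M015 Col15a1 missed the call as well (-2.48, adjusted p = 0.0548), while without M002 there were 6 members called lower. On scanner 1 alone, with M011 as the only irradiated array, Col15a1, Col17a1, Col7a1 and Col6a2 passed the threshold on the low side, where the spread is borrowed from other groups and 1 mouse stands for the dose. In the deposited values Col15a1 differed by 0.06, Col17a1 was called higher (1.06, adjusted p = 0.0159) and Col4a1 differed by -0.72. The other probes of Col15a1 and Col4a1 gave -0.36 and -0.70 and were not called.

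**Figure D4:**
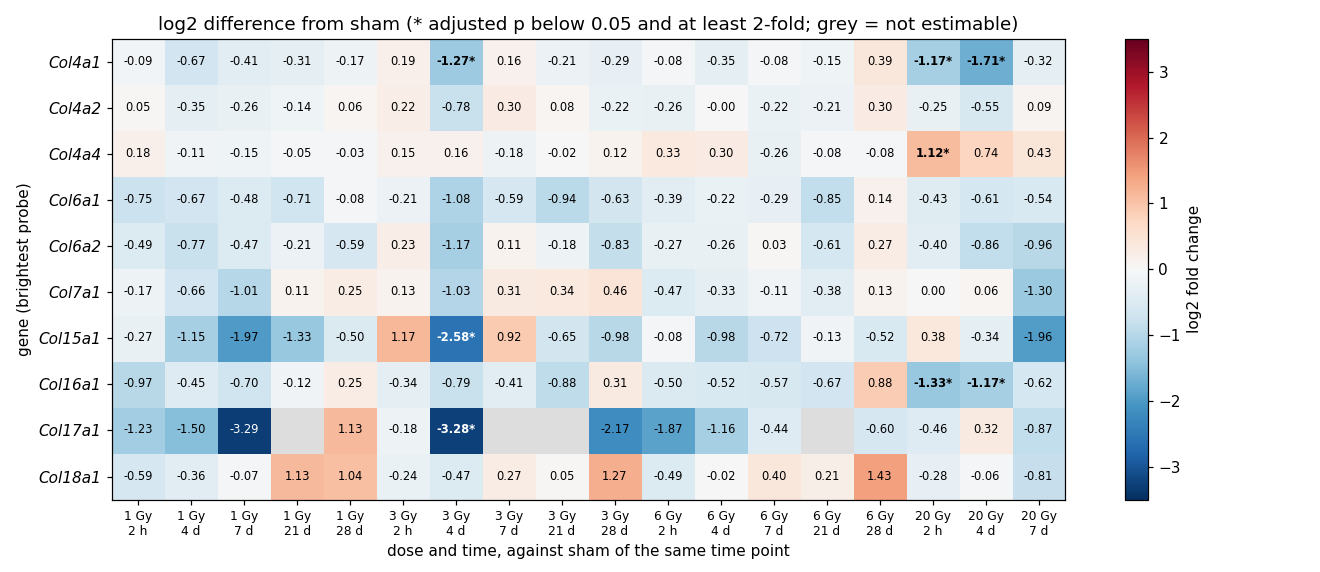
Log2 difference from sham of the same time point for the 10 genes (rows) in 18 comparisons of dose and time (columns), with an asterisk on called values and grey where Col17a1 could not be estimated. Calls stand at 3 Gy d4 and at 20 Gy h2 and d4, and nowhere else.

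In the other 8 sublethal comparisons of the first week no member was called, where 0.00578% of all probe tests were in the same fit. The deposited values called 4, and the share of all probe tests under them was not taken. Of the 79 loess-normalized differences, 61 lay below 0, and they ranged from -3.29 to 1.17. Their lowest adjusted p in limma was 0.281, and none had an unadjusted p under 0.05 with a 2-fold difference. The medians of the set ran from -0.66 to 0.16. The lowest value, Col17a1 after 1 Gy at d7, rested on 1 array, and Col15a1 in the same comparison read -1.97. In the 6 late comparisons, at d21 and d28, no member was called either, where 0.00775% of probe tests were, and 4 values passed an unadjusted p of 0.05 with 2-fold higher values. The deposited values called 1 there, again without a share of all probe tests. Leaving out M002 gave 2 calls and leaving out M016, M018 or M019 gave 1. The 4 values that passed without adjustment were all Col18a1, named after its values were seen, at 1.13 (1 Gy, d21), 1.04 (1 Gy, d28), 1.27 (3 Gy, d28) and 1.43 (6 Gy, d28), with adjusted p between 0.0742 and 1. How many of all probes passed without adjustment was not counted. The 3 values of d28 share their 2 sham arrays, which read -0.82 and -2.04. The late effect was also set against that of the first week within each sublethal dose, and no member was called, where 0.0111% of probe tests were.

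The sham arrays of d28 were also set against those of h2. Col18a1 differed by -2.04 ± 0.37 (adjusted p = 0.00429) and the brightest Col16a1 probe by -1.83 ± 0.42 (adjusted p = 0.0131), 2 of 10 members lower and 0 higher, where 1.41% of probes were called lower and 1.31% higher. The deposited values called 4 lower, Col4a1 (-1.01) and Col4a2 (-1.02) besides these, and median centring called 6, with Col6a1 (-3.23) and Col6a2 (-2.94) as well. Shares of all probes under those settings were not taken, and the 1.41% and 1.31% belong to the loess-normalized ratios. Col18a1 read 0.43, 0.48, 0.26 and 1.27 at h2, and Col16a1 read -0.19 and -1.62 at d28, against 0.52 to 1.10 at h2. The other Col16a1 probe went the opposite way (0.91). All arrays of d28 were read on scanner 2, where M002 was the only sham array of h2. On that scanner alone, with the lone h2 array taken to vary like the other groups, the differences were -2.70 (adjusted p = 0.0048) and -1.42 (adjusted p = 0.235). Without mouse M003, which leaves 1 array at d28, they were -1.43 (adjusted p = 0.155) and -1.11 (adjusted p = 0.319), under the same assumption for the lone array. With the replicate block, the mouse as a fixed block within sham, Col18a1 differed by -1.78 ± 0.34 (adjusted p = 0.211) and Col16a1 by -1.06 ± 0.42 (adjusted p = 0.442), and no member was called.

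Ordered by group mean, Col4a1 ran from 1.84 ± 0.39 (SD, n = 4) in sham at d4 to 0.13 ± 0.15 (n = 4) after 20 Gy at d4, from which 1 Gy at d7 and 3 Gy at d28 (both 0.14) and 20 Gy at h2 (0.17) differed by less than their spread. Col16a1 ran from 0.94 in sham at d21 to -0.90 in sham at d28, just below 20 Gy at d4 (-0.74 ± 0.25). Col4a4 was highest after 20 Gy at h2 (0.84 ± 0.27) and next at d7 after 20 Gy (0.58 ± 0.31), which differed by less than their spread. Col7a1 was lowest after 20 Gy at d7 (0.52 ± 0.21), next to 1 Gy at d7 (0.81 ± 0.32, n = 2). Col15a1 was lowest in the same 2 groups (0.34 ± 0.14 after 20 Gy and 0.33 ± 0.18 after 1 Gy). Col6a1 and Col6a2, which build 1 trimer together with the α3 chain, were both lowest after 3 Gy at d28 (-1.63 ± 0.48 and -0.95 ± 0.63). Their group means were the most alike within the set, with r = 0.91 over 23 groups, and the least alike were Col4a1 and Col4a4 with r = -0.63. Group means share arrays, scanners and reference RNA, so these coefficients are descriptions without a test.

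Outside the set, the group means of Col4a1 were most like those of Vsir (r = 0.927), Dysf (0.925) and Hoxc8 (0.916), and those of Col4a2 most like Fgfr1 (0.914), Scarb1 (0.884) and Flot1 (0.866). Col6a1 was most like Colgalt1 (0.887), the enzyme that adds galactose to collagen hydroxylysine, Fto (0.88) and Adam15 (0.877), and Col6a2 like Rtn4rl1 (0.92), the minor fibrillar chain Col5a3 (0.866) and the collagen-secretion transcription factor Creb3l1 (0.857). Col15a1 was most like Itih5 (0.945), Igfbp5 (0.93) and Wfdc3 (0.927). For Col4a4 they were Rhox4e (0.932), Lars2 (0.912) and Irs4 (0.91), for Col7a1 Klc3 (0.913), Krba1 (0.903) and Ing4 (0.901), for Col16a1 Atp11a (0.899), Slc39a7 (0.89) and Nkd1 (0.879), and for Col18a1 Pagr1a (0.904), Sppl2b (0.871) and Mrpl43 (0.859). For Col17a1, over 20 groups, they were Cipc (0.866), Trim54 (0.853) and Cd93 (0.853).

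Of the genes that work beside these collagens, the partners in the basement membrane were called in 1 direction only. Among 18 tested laminins, nidogens and other partners, 4 were called lower at h2 and 7 at d4 after 20 Gy, and none higher. Over all tested probes, against which this and the further lists can be read, 3.33% were called lower and 5.79% higher at h2, 5.11% and 6.09% at d4, 0.624% and 1.21% at d7, and 3.34% and 1.92% after 3 Gy at d4. At d4 the partners were led by Lama4, the laminin chain of vessel walls (-3.07), Frem2 of the epidermal anchoring complex (-2.01) and the epithelial laminin chain Lama3 (-1.95). In the deposited values these genes differed by -0.91 (Lama4), -0.53 (Frem2) and -0.46 (Lama3). At d7 none of the 18 was called. After 3 Gy at d4, 6 were called lower, Lama4 (-2.82) and Frem2 (-1.83) leading. The deposited values gave -0.68 and -0.39 for these 2 genes. With scanner as a block only 3 of 30294 probes were called lower in that comparison.

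The hemidesmosome and anchoring list, which shares laminin chains with the list of basement membrane partners, had 3 of 11 lower and 1 higher at h2, 3 lower and 2 higher at d4, and 2 lower at d7 after 20 Gy. After 3 Gy at d4 it had 5 lower and 0 higher, among them the laminin chains Lama3 (-1.73) and Lamb3 (-1.33), which both stood at 0.40 in the deposited values. The higher ones were the basal keratins Krt5 (2.90 at h2 and 3.08 at d4) and Krt14 (1.21 at d4), which had the opposite sign in the deposited values (-1.59, -1.40 and -1.18). Those lower at d7 were Krt14 (-1.12) and the tetraspanin Cd151 (-1.06). Of 11 other nonfibrillar collagens, the network-forming Col8a2 was lower at h2 (-1.81) and d4 (-2.06), Col14a1 was lower at d4 (-2.90), and Col8a1 was higher at h2 (1.62) and d4 (1.23). The deposited values gave -1.15 and -1.06 for Col8a2, -1.13 for Col14a1, and 0.43 and 0.35 for Col8a1. None was called at d7, and after 3 Gy at d4 Col8a2 alone was lower (-2.03, and -0.24 in the deposited values).

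Of 11 collagen receptors, Antxr1, a receptor that binds type VI collagen, was lower at h2 (-1.53) and d4 (-1.39), the pericyte proteoglycan Cspg4 was lower at h2 (-1.02) and the inhibitory collagen receptor Lair1 was higher at d4 (1.12), with none called at d7. After 3 Gy at d4 the integrin chain Itga11 (-1.61) and Cspg4 (-1.11) were lower, with deposited values of -0.87 and -0.37. Of 23 genes that make collagen, Plod2, a lysyl hydroxylase, was higher at h2 (1.76), d4 (2.35) and after 3 Gy at d4 (2.21), P4ha1, a prolyl hydroxylase subunit, was higher at h2 (1.08), and Serpinh1, the collagen chaperone HSP47, was lower at d4 (-1.80) and d7 (-2.39), also in the deposited values (-2.04 and -2.67). Of 19 genes of collagen breakdown, 3 were lower and 1 higher at h2, 2 and 1 at d4, and 1 and 1 at d7. Mmp3, a stromelysin, was lower at h2 (-1.89) and d7 (-2.46), the gelatinase Mmp2 at h2 (-1.23), the protease Fap at h2 (-1.43) and d4 (-1.82), and the inhibitor Timp4 at d4 (-1.79). Timp3, another inhibitor, was higher at h2 (1.51) and d4 (1.68) and lower after 3 Gy at d4 (-1.06), and the cathepsin Ctsl was higher at d7 (1.55). Many of these differences were small in the deposited values, which gave 0.10, 0.07 and -0.61 for Timp3, 0.28 for Mmp2, -0.32 and -0.45 for Fap, 0.04 for Timp4, 0.44, 0.74 and 0.08 for Plod2, 0.35 for P4ha1, -0.02 and 0.11 for Antxr1 and 0.29 for Lair1. Mmp3 differed by more there (-2.87 and -3.11), and Ctsl kept its size (1.58). On scanner 1 alone Timp3 differed by -0.14 after 3 Gy at d4. In the other 14 sublethal comparisons no gene of any of these lists was called.

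**Figure D5:**
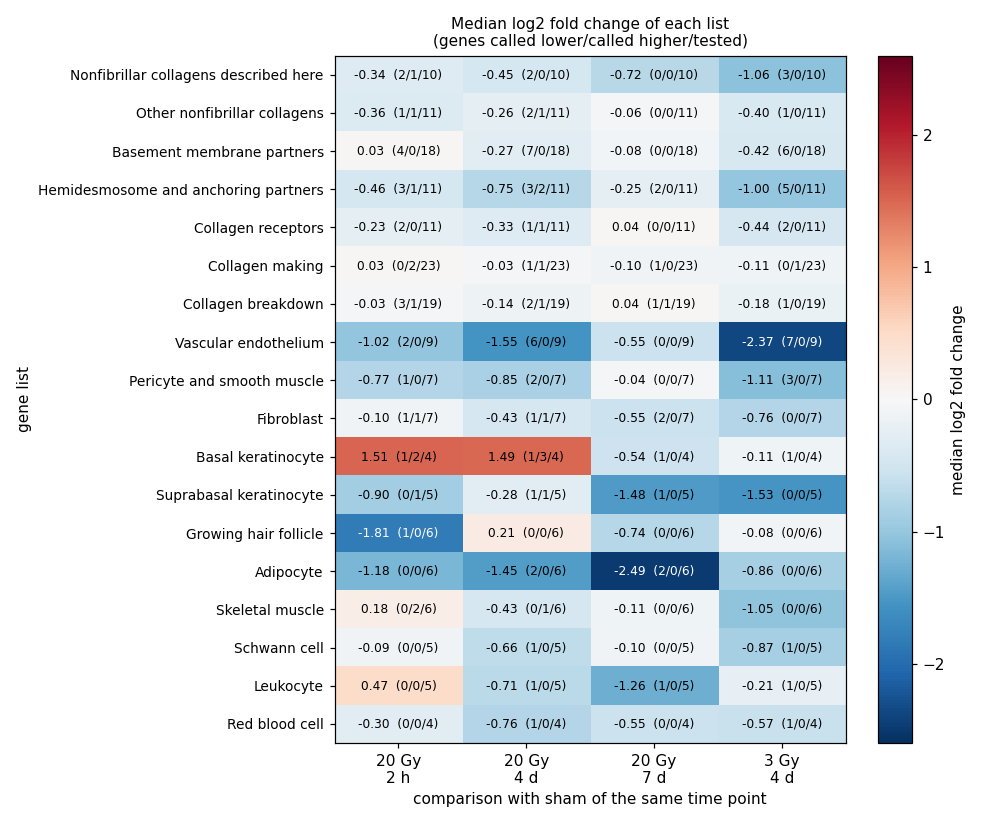
Median log2 difference from sham (colour) of the collagen set and of related and marker gene lists (rows) in 4 comparisons (columns), and the numbers of genes called lower, called higher and tested in each cell. The vascular endothelium list had the lowest median at 3 Gy d4 (-2.37), and the collagen set lay between -1.06 and -0.34.

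Markers of cell types were called in the comparisons where members of the set were. At 20 Gy d7 some markers were called where no member was in the same fit, though the deposited values called 6 members lower there. Fibrillar collagens were in none of the lists. Of 9 vascular endothelium markers, 2 were called lower at h2, 6 at d4 and 0 at d7 after 20 Gy, and 7 after 3 Gy at d4. The shares of all probes called lower were 3.33%, 5.11%, 0.624% and 3.34%, and with scanner as a block only 3 of 30294 probes were called lower after 3 Gy at d4. The mean log2 ratio of that list over its markers ran from 1.33 to 2.55 in sham and 0.29 to 0.91 after 20 Gy at h2, from 2.39 to 3.54 and 0.65 to 1.03 at d4, from 0.22 to 2.27 and 0.42 to 1.07 at d7, and from 0.19 to 2.18 after 3 Gy at d4. All 9 were well above background on at least 60 of the 82 arrays and none was absent. Leading members were Cdh5, the cadherin of endothelial junctions (-2.18 at h2, -3.21 at d4 and -2.82 after 3 Gy at d4), Cldn5, their claudin (-2.68, -3.13 and -2.84), Emcn (-2.90 at d4) and the receptor Kdr (-2.27 at d4). In the deposited values Cdh5 differed by -0.40 at h2 and -0.83 at d4, and Cldn5 by 0.26 and -0.06. The part of these cells in the values of Col4a1 and Col15a1 was not tested.

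Of 7 pericyte and smooth muscle markers, 1 was lower at h2, 2 at d4 (Rgs5 -2.95 and Myh11 -2.23) and 3 after 3 Gy at d4, and none at d7. Of 7 fibroblast markers, Fbln1 was lower (-1.24 at h2 and -1.13 at d4) and Fbln2 higher (2.34 and 1.86), with -0.23, -0.25, 0.20 and 0.12 in the deposited values, and at d7 the matrix proteins Lum (-4.38) and Sparc (-3.26) were lower, also in the deposited values (-3.80 and -2.88). The mean log2 ratio of the fibroblast list lay between 0.57 and 0.63 on the 3 arrays of 20 Gy at d7 and between 1.11 and 2.82 in sham. Of 4 basal keratinocyte markers, Trp63, the p63 transcription factor, was lower at h2 (-2.77) and d4 (-2.50), also in the deposited values (-1.23 and -1.39), and lower after 3 Gy at d4 (-2.91), where the deposited values gave 0.63, while 2 keratins at h2 and 3 at d4 were higher. Of 6 adipocyte markers, 2 were lower at d4 (Plin1 -2.71 and Retn -1.94) and 2 at d7 (Adipoq -3.38 and Cfd -2.58, or -1.18 and -1.55 on scanner 1 alone). No marker of any list was called in the other 14 sublethal comparisons. Their part in the collagen values was not tested.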

How the data were processed

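Biopsy RNA (Cy5) was hybridized with reference RNA (Cy3) on 2-color Agilent mouse arrays, 1 array per biopsy, without dye swaps. The authors deposited the scanner output of all 82 arrays. Per the file headers it was made with Agilent Feature Extraction 11.0.1.1 on scanner model G2600D (scanner 1, 25 arrays) and with 10.10.1.1 on G2505C (scanner 2, 57 arrays). The deposited median spot and background intensities of both channels were extracted by that software and not normalized. The deposited log10 ratio of Cy5 over Cy3 was made by the same software after background subtraction and dye normalization. A further table deposited by the authors holds log2 ratios that had been normalized, by steps not given in the sources used here. Its columns correlated with the scanner ratios of their arrays at a median of 0.9495 (lowest 0.5543) over bright spots. The median slope was 1.052, taken as the inverse of the slope of the ratio on the deposited value. The column medians lay between -0.01469 and 0.01501. On the median array, scale and direction at bright spots were thus close to log2 Cy5 over Cy3, and the columns were centred near 0. Single arrays and genes could differ, and other steps stay unknown.

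Median intensities were background-corrected by normexp with an offset of 50 and normalized by loess within arrays in limma 3.58.1 (R 4.3.3), with control spots at weight 0. Median signals were taken where the plan spoke of the software's signals in general. Outlier-flagged spots (0.7044% of spot values) were left out and spots of a probe averaged. Testing was limited to 30294 of 41174 probes, those whose Cy5 signal the software marked as well above background on 50% or more of a group's arrays in any group. A mean per group was fitted for 23 groups, Benjamini-Hochberg adjustment ran over all tested probes, and a call needed an adjusted p under 0.05 and a 2-fold difference. The fit was tested on simulated data with known changes. Symbols came from the accession of each probe through RefSeq. The members, the gene lists and the tests were chosen with earlier results of these data known. The genes named are the 10 members, the 3 genes most like each over group means, and of each list those passing at 20 Gy (up to 4) or at a sublethal dose (up to 2), apart from a few results that are not reported here.

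The labels give mice and no replicate numbers that pair arrays across doses. Arrays of the same mouse shared deviations weakly (median correlation 0.10 over 111 pairs, lowest -0.66, against -0.04 over 429 pairs of different mice of one dose at different times), so mouse entered as a random block only as an alternative. Other alternatives were scanner, scan day and slide as blocks, each scanner alone, the software's log ratio, median centring, the deposited table, an offset of 0, other filters, the other probe of a gene, only the groups compared, and leaving out each mouse. Scan day as a block and keeping outlier spots were chosen after seeing the data. The percentage of probes well above background lay between 33.1 and 71.2 per array (median 52.6), with a median of 43.4 for the 20 Gy arrays. Precision was limited by how many arrays a group had.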

Additional observations from a re-analysis of the deposited data

Results flagged for a closer look

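In groups of 4 or 5 arrays, 10 of 141 combinations of gene and group (7.09%) held an array that stood apart from the rest, where chance flags about 1 in 20. In 5 of the 10 it was the only array of its group read on its scanner. These were Col7a1 in sham mouse M002 at h2 (-0.04, nearest other array 2.73), Col16a1 and Col17a1 in the same mouse at d4 (-0.48 against 0.69, and 3.96 against 6.30), Col6a1 after 6 Gy in M017 at h2 (1.88 against -0.21) and Col6a2 after 1 Gy in M010 at d4 (1.51 against 0.31). The other 5 were Col4a2 after 3 Gy in M015 at h2 (0.16 against 0.93), after 6 Gy in M020 at d28 (0.94 against -0.33) and after 20 Gy in M022 at h2 (0.19 against 0.46), Col6a2 after 3 Gy in M013 at d4 (0.96 against 0.06), and Col17a1 after 3 Gy in M014 at h2 (4.18 against 5.94). The part of the scanner in these values was not tested.

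The effect of 20 Gy on Col4a4 differed between time points, by -0.69 from h2 to d7 (adjusted p = 0.0419 in limma), under 2-fold. The deposited values gave 0.03 and median centring 1.29 for the same change.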

How the results depend on the processing

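Counts of members called lower (higher where said) moved by over 1.5 times as follows, for 20 Gy against sham, 3 Gy against sham, 20 Gy against 6 Gy and sham at d28 against h2. With the deposited values they were 6 at h2 with 0 higher, 5 at d4, 6 at d7, 0 at 3 Gy d4 with 1 higher, 4, 7 and 5 against 6 Gy, 4 in sham, 4 in the other first-week comparisons and 1 in the late ones. With median centring they were 7 at h2 with 0 higher, 7 at d4, 0 at 3 Gy d4, 2, 6 and 0 against 6 Gy, 6 in sham and 3 for the change from h2 to d7. The software's log ratio gave 2 higher at h2, 3 higher at d4, 6 lower at d7, 0 at 3 Gy d4, 3, 2 and 1 higher against 6 Gy with 4 lower at d7, and 5 for the change. An offset of 0 gave 1 higher at d4, 3 lower at d7, 1 higher at h2 and at d7 against 6 Gy with 2 lower at d7, and 1 for the change. Other probes gave 1 lower with 2 higher at h2, 1 with 1 at d4, 1 at 3 Gy d4, 0 at each time against 6 Gy with 1 higher at h2 and d4, 1 in sham and 1 for the change. Scanner as a block gave 2 at d7, 0 at 3 Gy d4, 2, 3 and 2 against 6 Gy and 1 in sham. Scanner 1 alone gave 3 at d7, 4 and 4 against 6 Gy and 1 for the change, and scanner 2 alone 0 at 3 Gy d4 and 1 in sham. Blocking on scan day, an alternative chosen after seeing the data, gave 4 at d4, 0 at 3 Gy d4, 3, 4 and 0 against 6 Gy and 1 in sham. Slide as a random block gave 1 at d4, 0 at h2 against 6 Gy and 1 in sham. At d7 against 6 Gy, no filter and keeping outlier spots gave 0 and fitting only the groups compared gave 2. Counts over all probes under several of these settings follow below for 20 Gy and 3 Gy against sham. They were not taken for the other comparisons. Why the settings differ was not tested.

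Directions turned against sham at 20 Gy h2 for Col4a2 (0.14 deposited, 0.31 other probe), Col4a4 (-0.12 deposited, -0.93 centring), Col6a2 (0.07 software), Col15a1 (-2.66 deposited, -0.86 centring, -0.08 scanner 1, -0.14 other probe), Col16a1 (1.28 other probe) and Col17a1 (1.00 software, 0.91 offset 0). At d4 they turned for Col4a2 (0.02 deposited), Col4a4 (-0.06 deposited, -0.57 centring), Col7a1 (-1.60 deposited, -1.92 centring, -0.17 scanner block, -0.22 scanner 1, -0.19 scan day), Col15a1 (2.24 software, 1.28 offset 0), Col16a1 (1.49 other probe), Col17a1 (-0.97 deposited, -1.44 centring, -0.04 scanner block, -0.33 scanner 1, -0.07 scan day, -2.12 other probe) and Col18a1 (0.11 software, 0.05 offset 0). At d7 they turned for Col4a1 (0.15 on scanner 1 and with scan day), Col4a2 (-0.28 other probe), Col4a4 (-0.09 deposited) and Col17a1 (0.14 offset 0). At 3 Gy d4 they turned for Col4a4 (-0.14 scanner 2), Col7a1 (0.45 deposited), Col15a1 (0.06 deposited), Col16a1 (0.04 scanner 2, 0.05 other probe) and Col17a1 (1.06 deposited, 0.55 software). Col4a1 at h2 against 6 Gy turned to 0.01 with the deposited values and with its other probe, Col16a1 in sham at d28 to 0.91 with its other probe, and the Col4a4 change from h2 to d7 to 0.03 deposited and 1.29 with centring.

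Leaving out each mouse gave 1 to 2 lower and 1 to 1 higher at 20 Gy h2, 2 to 2 lower at d4, 0 to 0 at d7, 0 to 6 at 3 Gy d4, 0 to 1, 1 to 1 and 0 to 1 against 6 Gy at h2, d4 and d7, 0 to 3 in sham at d28 and 0 to 2 in the late comparisons. At 3 Gy d4 the count was 0 without M001, M004, M005, M012 or M014 and 6 without M002. Against 6 Gy the call at h2 was lost without M016, M017, M021, M022 or M023, and that at d7 without M001, M005, M007, M012, M013, M015, M018 or M020 to M024. The sham count was 0 without M003, and the late count was 2 without M002 and 1 without M016, M018 or M019. Ranges that crossed 0 were -0.08 to 0.89 for Col15a1 at h2, -0.22 to 0.21 for Col7a1, -0.33 to 0.60 for Col17a1 and -0.18 to 0.06 for Col18a1 at d4, and -0.02 to 0.27 for Col4a2 at d7. With the replicate block, mouse as a random block, 3 Gy d4 had 4 lower in place of 3, and 20 Gy kept its counts of 2 lower with 1 higher at h2, 2 at d4 and 0 at d7. Mouse as a fixed block gave 0 in sham at d28. Over all probes, the 1012 lower and 582 higher at 3 Gy d4 became 3 and 0 with scanner as a block, 2552 and 1307 on scanner 1, 3 and 2 on scanner 2, 1 and 1 with scan day, 0 and 0 with the software's ratio or centring, and 10 and 98 with the deposited values, and the lower count was 1527 with an offset of 0. For 20 Gy the counts were 1008 and 1754 at h2, 1548 and 1844 at d4 and 189 and 366 at d7. They became 7467 and 5194, 6493 and 4757, and 2341 and 1959 with the software's ratio, 11138 and 83, 7748 and 125, and 20 and 22 with centring, 673 and 304, 689 and 252, and 713 and 313 with the deposited values, and 2981 and 3238, 4039 and 3675, and 1134 and 1394 with an offset of 0. Lower counts were 1875 at h2 on scanner 1, and 496 at h2 and 757 at d4 with slide. At d7 scan day gave 74 and 199, and fitting only the groups compared gave 47 and 80. Of the single-gene values under other settings, 519 kept direction and call, 49 gained a call, 37 lost one and 48 turned.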

Other observations

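Other marker lists were tested in the same fit, and values are log2 differences from sham of the same time point, at 20 Gy where no dose is given. Of 5 suprabasal keratinocyte markers, the envelope protein Lor was higher at h2 (1.54) and d4 (1.64), involucrin, Ivl, was lower at d4 (-2.36) and Krt1 was lower at d7 (-3.82) after 20 Gy. Lor had the opposite sign in the deposited values (-1.58 and -1.59), and Krt1 did not (-3.84). Of 6 growing hair follicle markers only the transcription factor Msx2 was called, at h2 (-1.99). Of 6 skeletal muscle markers the fast myosins Myh4 (2.98 at h2 and 2.37 at d4) and Myh1 (1.82 at h2) were higher, with values of -1.47, -1.42 and -0.97 in the deposited table. Of 5 leukocyte markers, Cd207 of Langerhans cells was lower at d4 (-2.06), and Cd74 of antigen-presenting cells at d7 (-2.30) and after 3 Gy at d4 (-1.54). Of 4 red blood cell markers, Hba-a1, a globin, was lower at d4 (-1.96) and after 3 Gy at d4 (-3.65). In the deposited values Msx2 was at -0.57, Cd207 at -1.29, Cd74 at -3.00 at d7 and -0.39 after 3 Gy, and Hba-a1 at -2.10 and -0.46.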
